A study of Mus musculus with 6 samples.

Results

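Expression of the 3 NR4A nuclear receptor genes and of 7 genes that act in, or respond to, cAMP and CREB signalling was compared between control and Lkb1 mutant growth plates of the mouse. The 10 genes are Nr4a1, Nr4a2 and Nr4a3, the CREB family genes Creb1 and Crem, the cAMP phosphodiesterase genes Pde4b and Pde4d, and the early response genes Per1, Dusp1 and Ier3. They were chosen by name, with earlier results of these data known, and each is represented by its brightest probe set that is annotated to it alone. All 10 were measured, out of 19938 genes with such a probe set, and all 10 passed the filter on dim signals that left 17020 genes for the test.

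Total RNA came from chondrocytes of the growth plate, the cartilage at which long bones grow, from femur and tibia at postnatal day 30. One group of 3 samples came from control mice and the other group of 3 from mice with a conditional mutation of Lkb1, all on a mixed FVB, 129S6 and C57CL/6 background. The Cre line, the alleles and the genotype of the controls were not known from the sources used here. The labels call the replicates biological without tying them to separate animals. A p-value here thus reflects the spread among these arrays, and whether that is a spread among animals is not known. One Affymetrix array with 1 dye was run per sample, and 3 arrays per group limit the precision.

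Cyclic AMP is made by adenylyl cyclases downstream of G protein-coupled receptors such as the parathyroid hormone receptor, a main regulator of growth plate chondrocytes. It activates protein kinase A, which phosphorylates CREB and, through the salt-inducible kinases (SIKs), lets the CRTC coactivators enter the nucleus. Lkb1, now named Stk11, is the kinase that activates the SIKs. CREB with CRTC binds the cAMP response element (CRE) and induces a fast set of genes, among them the NR4A receptors, the Crem repressor isoforms and the PDE4 enzymes, which break cAMP down again.

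The promoters of the NR4A genes are shown because they carry the CRE core TGACG, the shorter form of the element, several times, which few promoters do. RefSeq promoter windows of 300 bases (build GRCm38.p6, 250 before to 50 after a transcription start) were found for 9 of the 10 genes, all but Crem, and searched on both strands. The windows of Nr4a1, Nr4a2 and Nr4a3 held 4 cores each. Of all 32851 windows of this length, 20.8% held at least 1 core and 0.231% held 4 or more. In the lines below the letters of a core or a full CRE are in capitals. The Nr4a1 and Nr4a2 lines end at the base before the transcription start, at chr15:101266596-101266845 on the plus strand and chr2:57124004-57124253 on the minus strand. Of Nr4a3 only 2 stretches of 30 bases are shown, since its RefSeq gene record begins inside the window. They lie 220 to 191 and 160 to 131 bases before the start, at chr4:48045085-48045114 and chr4:48045145-48045174 on the plus strand.
Nr4a1: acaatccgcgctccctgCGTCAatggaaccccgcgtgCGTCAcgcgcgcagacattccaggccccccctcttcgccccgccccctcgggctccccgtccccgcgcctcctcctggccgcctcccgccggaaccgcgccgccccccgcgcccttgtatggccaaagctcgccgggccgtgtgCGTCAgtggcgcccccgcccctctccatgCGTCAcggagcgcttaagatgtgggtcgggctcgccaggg
Nr4a2: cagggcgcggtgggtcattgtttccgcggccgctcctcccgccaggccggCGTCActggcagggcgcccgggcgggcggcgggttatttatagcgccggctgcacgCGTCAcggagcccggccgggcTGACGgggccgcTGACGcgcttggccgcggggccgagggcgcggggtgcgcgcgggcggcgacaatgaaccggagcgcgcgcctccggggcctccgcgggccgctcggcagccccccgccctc
Nr4a3, first stretch: cccatgtCGTCAcatTGACGtctcgcattc
Nr4a3, second stretch: cctgtggcataaaTGACGtgccgagagagc

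The cores begin 233, 213, 69 and 40 bases before the start in Nr4a1, all in the reverse orientation, and 200, 144, 123 and 111 bases before it in Nr4a2. In Nr4a3 they begin 231, 213, 205 and 147 bases before the start. The palindromic full CRE, TGACGTCA, which 1.79% of all windows held, was found in 1 of the 13 windows of the 9 genes, that of Dusp1. It lies 143 bases before the start and contains 2 overlapping cores, and another core begins 191 bases before the start. The upstream part of that window, at chr17:26508473-26508722 on the minus strand, is given next, with 30 bases around the core of the first of 4 Pde4b windows (chr4:102421508-102421537, plus strand) and of the second of 2 Per1 windows (chr11:69100007-69100036, plus strand).
Dusp1: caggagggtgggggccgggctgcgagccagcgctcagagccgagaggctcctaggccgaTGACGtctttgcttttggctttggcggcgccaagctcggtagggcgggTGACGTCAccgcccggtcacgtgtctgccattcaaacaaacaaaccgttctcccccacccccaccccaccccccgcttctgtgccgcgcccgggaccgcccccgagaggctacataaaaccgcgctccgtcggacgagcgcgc
Pde4b: tgatttggctgcaCGTCAattttctcatct
Per1: tgagctcagcggcTGACGtcggtttccctg

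These letters were not found in the windows of Creb1, Ier3 and Pde4d. The NR4A binding motif NBRE (AAAGGTCA), which 1.51% of all windows held, was in no window of the 9 genes. A match describes the sequence and does not show that a factor binds there.

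Transcripts of 8 of the 10 genes were higher in the mutants and those of none were called lower, at a limma adjusted p of 0.05 over all genes tested. Over all 17020 genes, 7.84% were called higher and 6.82% lower. Every mutant array was above every control array for 9 of the 10 genes, against 20.0% of all genes tested. The median difference of the 10 genes was 0.88 on the log2 scale, beside 0.03 for all genes tested. In bulk RNA a change in the number of cells that express a gene and a change in RNA per cell cannot be told apart.

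**Figure D1:**
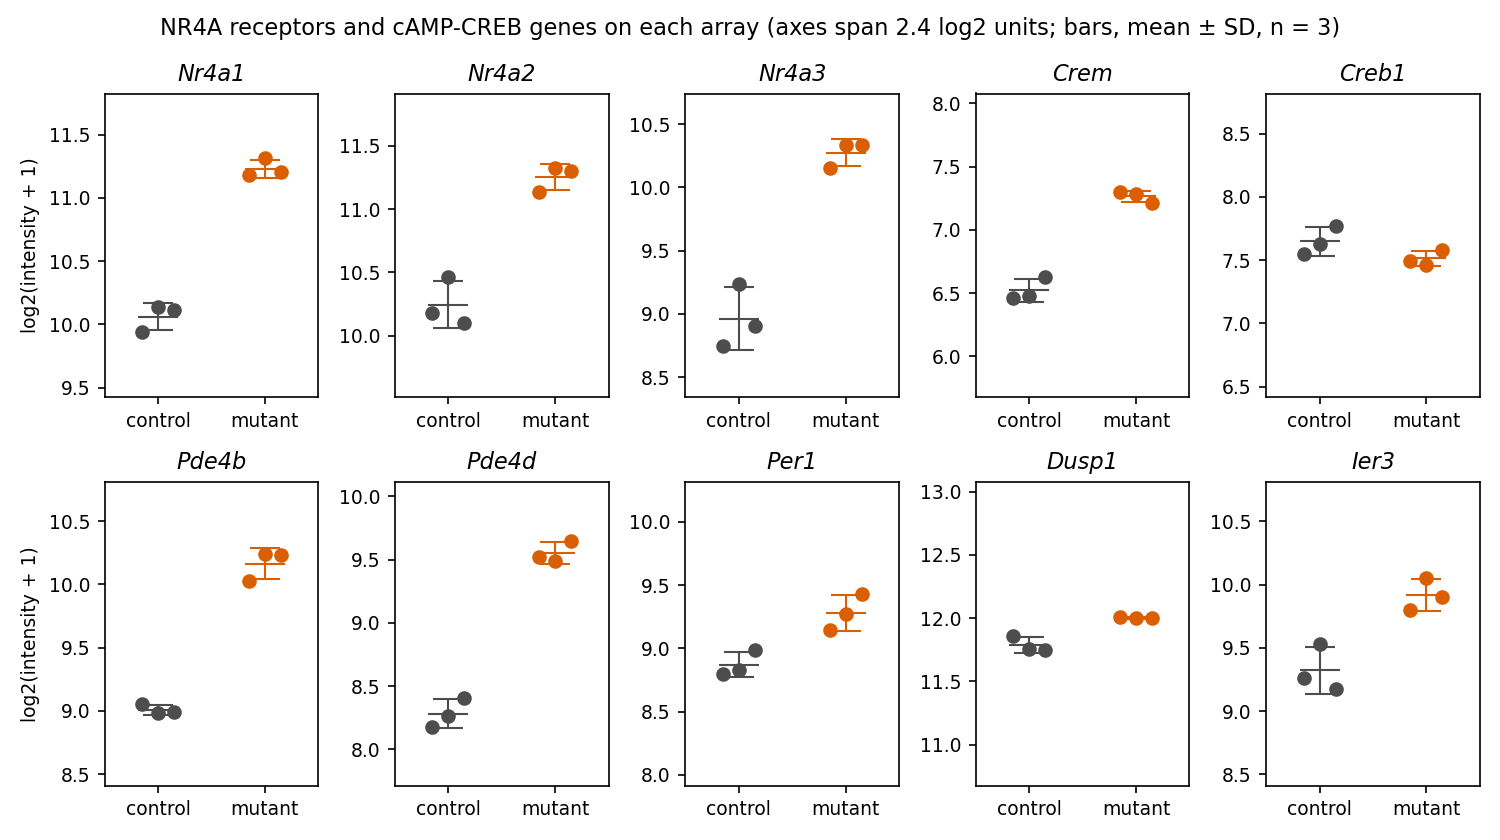
Log2(intensity + 1) of each of the 10 genes on the 3 control and 3 mutant arrays (points), with mean ± SD as bars. All y axes span the same range, so the heights of the steps can be compared; the groups overlap only for Creb1.

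Stk11, the mutated gene, was at 8.68, 9.08 and 9.67 in control replicates 1, 2 and 3 and at 7.39, 7.51 and 7.52 in the mutant replicates (log2 intensity, as for all levels here). Every mutant array was below every control array, and the difference was -1.67 (SE 0.22, limma adjusted p = 0.00387). Its control values were highest on the array with the most marrow signal, described below, and with the marrow marker mean as a covariate its difference was 0.40 (adjusted p = 0.585). Where its probes lie relative to the mutated part was not analysed here.

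All 3 NR4A receptor genes rose, by 2.01- to 2.48-fold. They encode orphan nuclear receptors that are made within minutes of a stimulus and act as transcription factors without a known classical ligand. Nr4a1 (Nur77; probe set 10427035) was at 9.94, 10.13 and 10.11 in the controls and at 11.18, 11.31 and 11.20 in the mutants. The groups were far apart compared with the spread within them, and the difference of 1.17 (SE 0.09, 95% interval 0.95 to 1.39) is 2.25-fold, with a limma adjusted p of 0.000579. Nr4a2 (Nurr1; probe set 10482772) was at 10.18, 10.46 and 10.10 in the controls and at 11.14, 11.33 and 11.30 in the mutants. Its difference of 1.01 (SE 0.12, adjusted p = 0.00228) is 2.01-fold. Nr4a3 (Nor1; probe set 10504838) had the widest spread among the controls of the receptors, at 8.75, 9.24 and 8.90, and was at 10.15, 10.34 and 10.33 in the mutants. It also had the largest difference of the 10 genes, 1.31 (SE 0.14, 2.48-fold, adjusted p = 0.00145). The 95% intervals of the receptors, 0.95 to 1.39, 0.73 to 1.29 and 0.99 to 1.63, overlap, and differences between them were not tested. By size of increase Nr4a3, Nr4a1 and Nr4a2 stood at ranks 137, 190 and 269 of the 17020 genes. In each of the 6 fits that left out 1 array all 3 kept their call, with adjusted p of at most 0.0178.

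Both PDE4 genes rose more than 2-fold. Their enzymes hydrolyse cAMP, and their transcription is itself induced by cAMP in many cells. Pde4b (probe set 10506335) was nearly the same in all controls, at 9.05, 8.98 and 8.99, and was at 10.02, 10.24 and 10.23 in the mutants. The difference was 1.15 (SE 0.09, 2.23-fold, limma adjusted p = 0.000599). Pde4d (probe set 10407097) was at 8.18, 8.26 and 8.40 in the controls and at 9.52, 9.49 and 9.65 in the mutants, a difference of 1.27 (SE 0.10, 2.41-fold, adjusted p = 0.000501). By p-value Pde4d, Nr4a1 and Pde4b were at ranks 65, 81 and 85 of all genes tested. Pde4d has many isoforms from separate promoters, and 2 dimmer probe sets are annotated to it. One (10407124) was at 6.29, 6.33 and 5.67 in the controls and at 7.62, 7.63 and 7.94 in the mutants. The other (10407122) was at 4.94, 5.22 and 6.22 in the controls and at 6.53, 6.57 and 6.75 in the mutants. In both, the lowest mutant array was above the highest control array, and the mean differences were 1.63 and 1.16. Neither exceeded in any control the 95% point of olfactory receptor probe sets, which serves as background here and lay between 6.40 and 6.73, so these sizes are limited by it. Which isoforms the 3 probe sets cover was not analysed here.

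The CREB family genes differed from each other. Crem, whose inducible short products (ICER) repress CREB targets, was at 6.46, 6.48 and 6.63 in the controls and at 7.30, 7.28 and 7.21 in the mutants. It rose by 0.74 (SE 0.09, 1.67-fold, limma adjusted p = 0.00241). It exceeded the background in 1 of 3 controls and in all mutants, so its size is limited by the background. Whether its probe set (10457205) covers ICER, the longer products or both was not analysed here. Creb1, the gene of CREB itself, was at 7.55, 7.63 and 7.77 in the controls and at 7.49, 7.47 and 7.58 in the mutants. The groups overlapped, and the difference of -0.13 (adjusted p = 0.402) had a 95% interval of -0.35 to 0.09. CREB is controlled mainly by phosphorylation and coactivators, which these arrays do not measure.

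**Figure D2:**
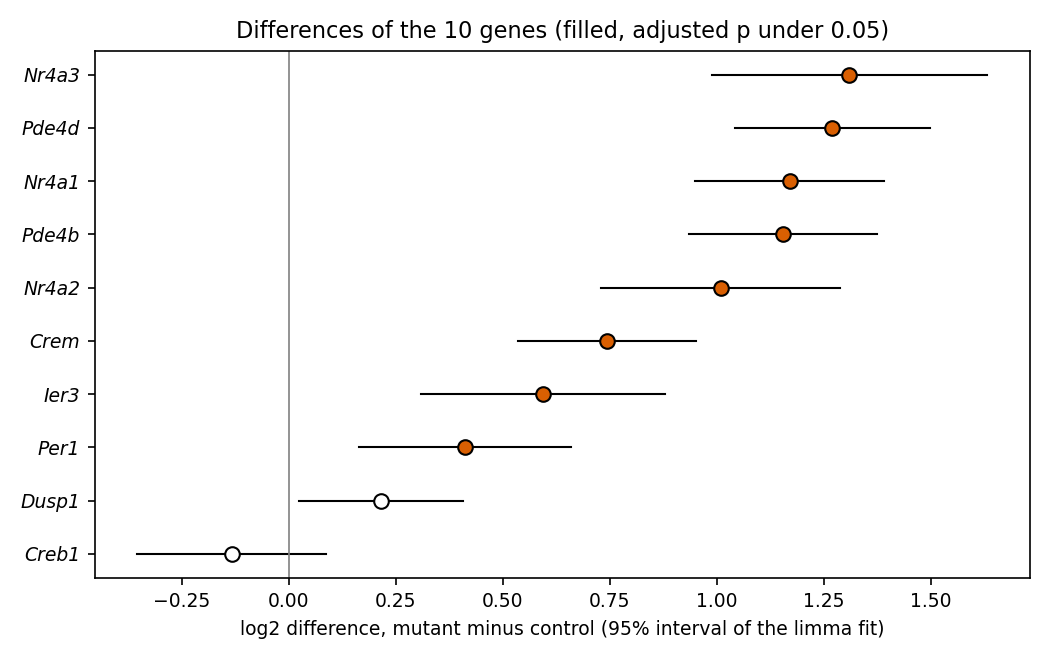
Difference in log2(intensity + 1), mutant minus control, of each of the 10 genes (points) with its 95% interval from the limma fit (lines); filled points passed an adjusted p of 0.05. Nr4a3 at 1.31 is the highest and Creb1 at -0.13 the lowest, and the interval of Dusp1 lies above 0 though its adjusted p is 0.127.

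Of the early response genes, Ier3 and Per1 were called and Dusp1 was not. Ier3, an early response gene linked to cell survival under stress, was at 9.27, 9.53 and 9.17 in the controls and at 9.80, 10.05 and 9.90 in the mutants. It rose by 0.59 (SE 0.12, 1.51-fold, limma adjusted p = 0.0188), a call that did not hold in the fits leaving out mutant replicate 2 or 3, where the adjusted p was at most 0.0782. Per1, a repressor of the circadian clock that cAMP and glucocorticoids also induce, was at 8.80, 8.83 and 8.98 in the controls and at 9.15, 9.27 and 9.43 in the mutants. Its difference of 0.41 (SE 0.11, 1.33-fold) was just past the threshold (adjusted p = 0.0414) and stayed past it in 1 of the 6 fits without 1 array, that without control replicate 3. The adjusted p of Per1 reached 0.164 without mutant replicate 3. Dusp1, which encodes a phosphatase that shuts off MAP kinases, was the brightest of these probe sets, at 11.86, 11.76 and 11.75 in the controls and at 12.01, 12.00 and 12.00 in the mutants. Its groups did not overlap, but its difference of 0.22 (SE 0.08, adjusted p = 0.127) was not called; with an intensity trend in the variance it was (adjusted p = 0.0183). The promoter with the full CRE thus belonged to a gene with one of the smallest differences of the 10, which is a description of 1 gene.

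The composition of the samples differed between the groups as well. Of 8 chondrocyte markers all exceeded the background on every array and none was called, and their mean level was 11.85 to 11.96 in the controls and 11.79 to 11.89 in the mutants. Of 22 measured marrow markers (B lymphoid, erythroid and neutrophil) 18 fell, and their mean level was 8.48 to 9.88 in the controls and 5.87 to 6.18 in the mutants. Of these markers 19 exceeded the background in all controls and 4 in all mutants. The mutant means of Klf1, Rhag, Mpo, Elane, Cd79a and Vpreb3, all called lower, were under the filter cut of 5.56. These genes entered the test through their control values. Markers of macrophages were higher (7 of 7, mean level 7.46 to 7.75 in the controls and 8.25 to 8.80 in the mutants), as were those of fibrous tissue and tendon (7 of 8, 8.80 to 9.47 and 10.65 to 10.76) and of endothelium (5 of 7, 6.41 to 6.59 and 7.13 to 7.45). In all controls 6 macrophage, 6 fibrous and 3 endothelial markers exceeded the background, and in all mutants 7, 8 and 4. Kdr, an endothelial marker called higher, had a control mean of 5.54, under the filter cut of 5.56. It entered the test through its mutant mean of 6.44. Of 6 muscle markers 1 rose. Beside all these marker counts, the shares over all genes tested were 7.84% called higher and 6.82% lower. The part of the macrophage, fibrous and endothelial cells in the higher levels of the 10 genes was not tested.

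The marrow signal also varied among the controls. The marrow marker mean was 8.48, 9.17 and 9.88 in control replicates 1, 2 and 3, a span of 1.40. Over the same arrays the 10 genes spanned between 0.07 (Pde4b) and 0.49 (Nr4a3). The span was 0.20 for Nr4a1, 0.36 for Nr4a2, 0.17 for Crem, 0.22 for Creb1 and for Pde4d, 0.18 for Per1, 0.11 for Dusp1 and 0.36 for Ier3. The part of the marrow cells in the differences of the 10 genes was not tested beyond the fits that follow. With control replicate 1, the one with the least marrow signal, as the only control, the differences were 1.29 for Nr4a1, 1.08 for Nr4a2, 1.52 for Nr4a3, 1.11 for Pde4b, 1.37 for Pde4d and 0.81 for Crem, values that have no test. With the marrow marker mean as a covariate, the called genes kept their sign (Nr4a1 1.58, Nr4a2 0.83, Nr4a3 1.61, Pde4b 1.00, Pde4d 1.66, Crem 1.14). However, limma called none of the 10 in that fit, and adjusted p lay between 0.0844 for Nr4a1 and Pde4d and 0.972 for Dusp1. That covariate separates the groups completely, so this fit extends trends within the groups over a range that holds no array, and it called 4 of all 17020 genes.

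**Figure D3:**
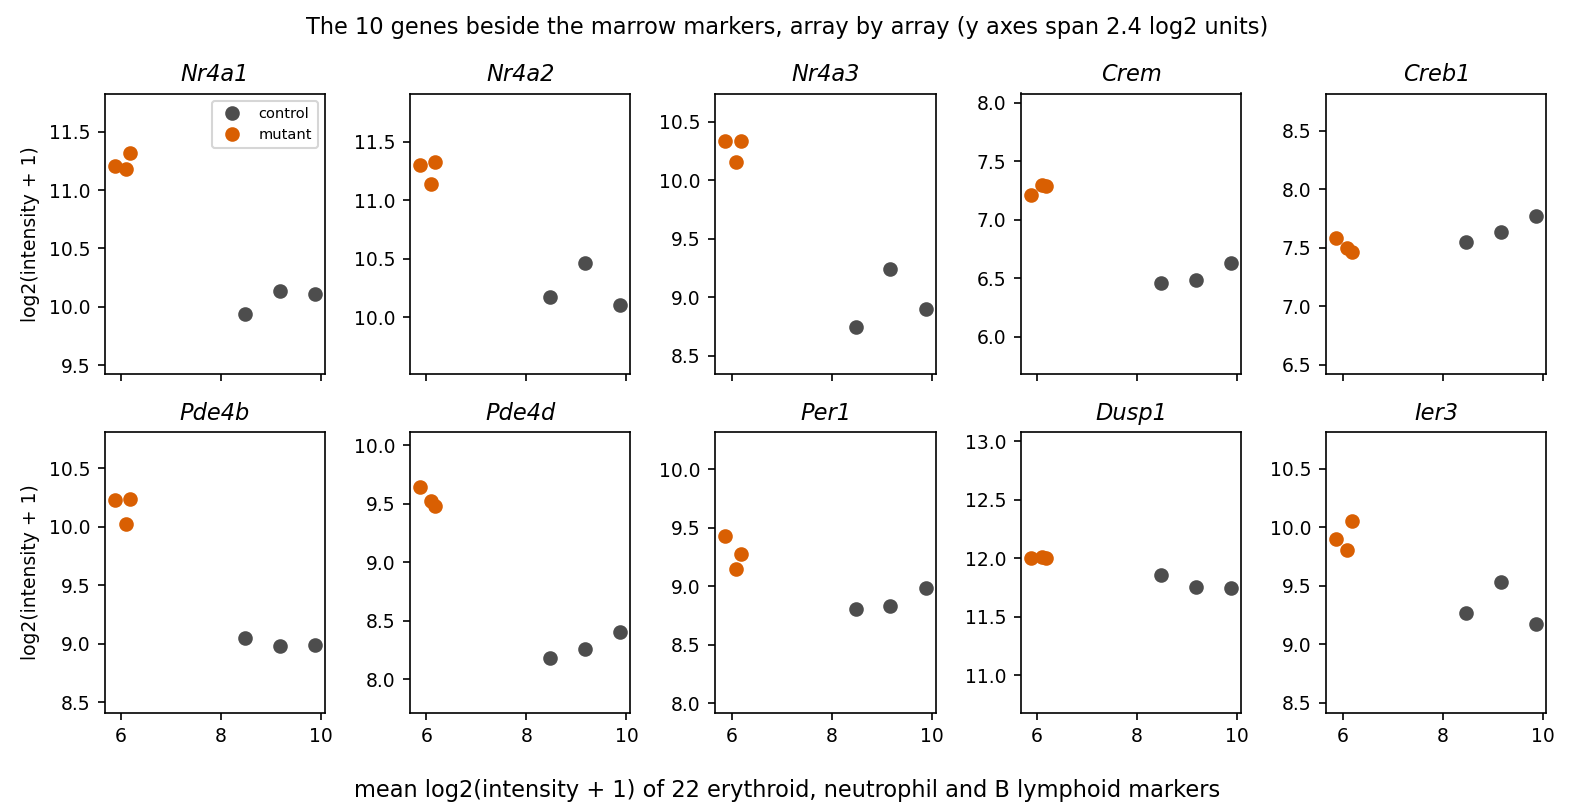
Log2(intensity + 1) of each of the 10 genes (y) against the level of the 22 marrow markers, averaged on the same array (x), with controls in grey and mutants in orange. The controls run from 8.48 to 9.88 on the x axis and the mutants from 5.87 to 6.18, with no array between them; over the controls the 10 genes span from 0.07 (Pde4b) to 0.49 (Nr4a3).

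The rest of the pathway was followed in 6 lists that hold the route from receptor to target, with clock genes as one of them. Together with MAP kinase phosphatases and glucocorticoid-induced genes they hold 116 genes beside the 10, of which 107 were measured and 103 tested. Of these 25 rose and 5 fell, with a median of 0.19, beside 7.84% of all genes tested called higher and 6.82% lower. The count of 30 was 17 without mutant replicate 3 and 19 without mutant replicate 1, and 17 genes, 12 higher and 5 lower, were called in every fit that left out 1 array.

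At the top of the pathway, 1 of 15 tested receptor, G protein and cyclase genes rose and 1 fell. These counts are near the shares over all genes tested, 7.84% called higher and 6.82% lower. Pth1r, the parathyroid hormone receptor, was at 10.77, 10.67 and 10.58 in the controls and at 9.45, 9.57 and 9.62 in the mutants. It fell by 1.13 (SE 0.10, limma adjusted p = 0.000659), so the receptor gene and the 8 called genes went in opposite directions in the same samples. With the marrow covariate the difference of Pth1r was -1.58, uncalled. Adcy3, an adenylyl cyclase, rose by 0.46 (adjusted p = 0.027), a call that was lost when control replicate 2 or any single mutant was left out, and its difference turned to -0.23, uncalled, with the marrow covariate. Of Gnas, the gene of the stimulatory G protein, there is no probe set annotated to it alone, and none is reported.

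Of 14 tested genes for protein kinase A, its anchors and Epac, 4 rose and 1 fell. Over all genes tested 7.84% were called higher and 6.82% lower. The decrease was in Prkar2b, a regulatory subunit, with a difference of -1.23 (SE 0.17, limma adjusted p = 0.00437), which was -0.19 with the marrow covariate (adjusted p = 0.863). The regulatory subunit genes Prkar1b (0.71) and Prkar2a (0.61), the Epac gene Rapgef3 (0.50) and the anchor gene Akap11 (0.49) rose. All 4 calls ended in the fit that left out mutant replicate 3, where the adjusted p was 0.127 for Prkar1b, 0.157 for Prkar2a and 0.0622 for Akap11. Those of Prkar1b, Prkar2a and Rapgef3 also ended without each of the other mutants and without 1 or more of the controls. The signs of Prkar1b and Prkar2a turned with the marrow covariate, to -0.89 and -0.80, where neither was called.

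Among 9 CREB partners, coactivators and SIKs, 2 rose and none fell, beside 7.84% and 6.82% of all genes tested. Sik1, itself a CREB target, was at 8.60, 8.82 and 9.14 in the controls and at 9.54, 9.82 and 9.73 in the mutants, an increase of 0.85 (SE 0.15, limma adjusted p = 0.0107) that missed the threshold without mutant replicate 3 (adjusted p = 0.0534). With the marrow covariate the difference of Sik1 was 2.00, uncalled. Sik2 rose by 0.76 (SE 0.11, adjusted p = 0.0055), and Sik3 differed by 0.26 (adjusted p = 0.0809). The coactivator genes Crtc1, Crtc2 and Crtc3 differed by 0.23, 0.19 and 0.39 and were not called.

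Phosphodiesterases other than Pde4b and Pde4d moved both ways, and one of them had the largest increase in all lists. Of 14 genes 5 rose and 1 fell, beside 7.84% and 6.82% of all genes tested. Pde7b, a cAMP-specific enzyme, was at 8.10, 8.05 and 7.96 in the controls and at 9.99, 9.90 and 9.93 in the mutants. It rose by 1.90 (SE 0.09, limma adjusted p = 0.000173), more than any of the 10 genes. Pde10a rose by 0.87 and Pde1a by 0.77, and Pde1a did not exceed the background on any array. The control mean of Pde1a was 5.54, under the filter cut of 5.56, so it entered the test through its mutant mean of 6.31. It is still counted among the genes that rose and among those called in every fit that left out 1 array. Pde3b (0.64) and Pde3a (0.56) rose too, but Pde3a lost its call without control replicate 2, mutant replicate 1 or mutant replicate 3 (adjusted p at most 0.0613). Pde2a, which cGMP stimulates, fell by 1.39 (SE 0.24, adjusted p = 0.00971), and its control values, from 7.57 to 8.63, were highest on the array where the marrow markers were. With the marrow covariate its difference was 0.85, which was not called. The PDE4 relatives Pde4a and Pde4c differed by -0.08 and 0.11 and were not called (adjusted p of 0.58 and 0.581), so within this subfamily the calls were in Pde4b and Pde4d. Pde4c did not exceed the background on any array. Pde4a lay near the background, with means of 6.75 in the controls and 6.68 in the mutants, and exceeded it in all controls and 2 mutants. The differences of Pde4a and Pde4c are thus limited by the background.

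**Figure D4:**
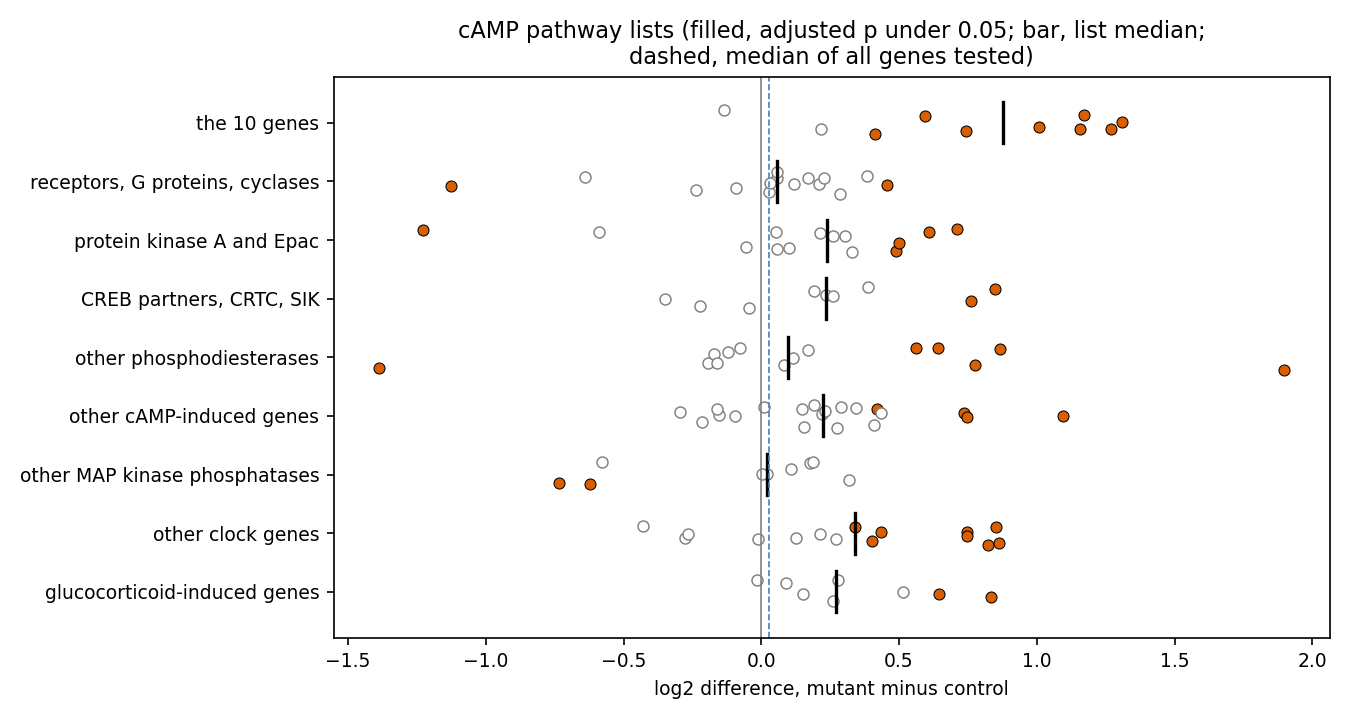
Difference in log2(intensity + 1), mutant minus control, of every tested gene of the 10 and of 8 pathway lists (points; filled, adjusted p under 0.05), with list medians as bars and the median of all genes tested as a dashed line. The median of the 10 genes is 0.88, and the list medians run from 0.02 to 0.34.

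Of 20 other cAMP-induced and early response genes, 4 rose and none fell, with a median of 0.23. Over all genes tested the shares were 7.84% and 6.82%. Gem, a small GTP-binding protein gene, rose by 1.09 (SE 0.15, limma adjusted p = 0.00392) and Fos, an AP-1 component, by 0.74 (SE 0.10, adjusted p = 0.00341). Per2 and Btg2 rose by 0.75 and 0.42, the latter without a call when control replicate 2 or any mutant was left out. The other 16 were not called, the highest difference being 0.44. Junb (0.44, adjusted p = 0.0606) and Ier2 (0.41) were higher on each mutant array than on all controls, Ier5 differed by 0.34, Egr1 by 0.19 and Fosb by 0.15. Rgs2 (-0.30), Atf3 (-0.16) and Ppargc1a (-0.22), which cAMP also induces in other cells, were among these 16, and Ppargc1a did not exceed the background on any array.

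Of 15 clock genes other than Per1, 8 rose and none fell, beside 7.84% of all genes called higher, and the list median was 0.34. Per2 is 1 of these 8 and is also counted among the cAMP-induced genes above, but only once among the 103 genes tested. The count of higher genes was 4 when any 1 mutant was left out, where Cry1, Cry2, Hlf and Dbp were not called, and 5 without control replicate 2; the fit without control replicate 3 called 1 clock gene lower. Dbp (0.86), Bhlhe41 (0.85), Per3 (0.82) and Tef (0.75) rose most, and Bhlhe41 turned to -0.18, uncalled, with the marrow covariate. Dbp had the widest control range, 8.19, 8.72 and 9.18, and its adjusted p was 0.0492, which rose to 0.159 without mutant replicate 2 and was also past 0.05 without control replicate 2 and without either other mutant. With the marrow covariate the difference of Dbp grew to 3.10 and that of Per2 to 1.12, both uncalled. The 4 clock genes with a negative difference were Arntl (-0.43), Nr1d1 (-0.28), Ciart (-0.27) and Bhlhe40 (-0.01). None of them was called (limma adjusted p of 0.253, 0.119, 0.205 and 0.962). The hour at which tissue was taken was not known from the sources used here, and its part in these values was not tested.

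Over the whole array the share of genes called higher was not larger among genes with more CRE cores. Of the genes tested, 13405 had a promoter window, and 7.50% of these were called higher. Among 9318 genes with no core the share was 7.63%, among 2940 with 1 it was 7.41%, among 893 with 2 it was 6.61% and among 195 with 3 it was 7.18%. Of 59 genes with 4 or more, 4 were called higher (6.78%). They are Nr4a3, Nr4a1, Nr4a2 and Galnt11 (0.45, adjusted p = 0.0483), and the 3 receptors had the largest differences of these 59 genes. For 401 genes with a full CRE the share was 7.98%. These shares are a description over genes, with the highest count over a gene's windows. The median GC content of the windows rose from 59% with no core to 64.7% with 4 or more.

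**Figure D5:**
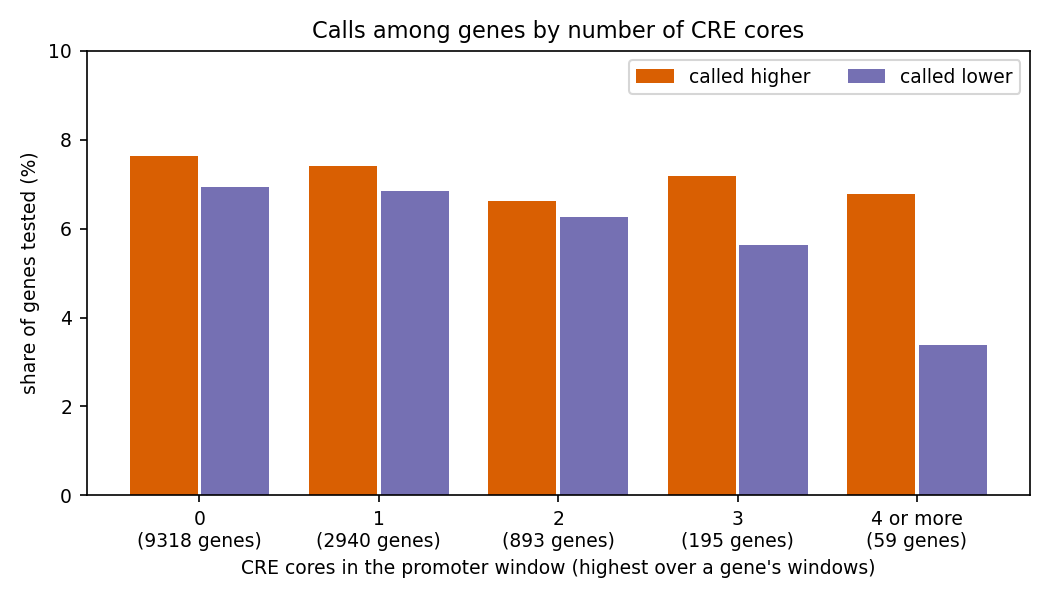
Share of tested genes called higher (orange) or lower (purple) in the mutants, in percent, by the number of CRE cores in the gene's promoter window. The share called higher is 7.63% with no core and 6.78% with 4 or more, the latter being 4 of 59 genes, of which 3 are the NR4A receptors.

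The genes whose levels followed each receptor most closely over the 6 arrays were searched among all genes tested by Pearson's r, as a description. For Nr4a1 they were Proz, Abcb1a and Gdf5 (r = 0.997, 0.997 and 0.996), for Nr4a2 Slc51b, Snord55 and Homer3 (0.999, 0.998 and 0.997), and for Nr4a3 Fzd6, Epm2a and Scara3 (0.998, 0.997 and 0.997). With 3 arrays in each of 2 separate groups such values mostly restate the difference between the groups. Of the 9 genes Gdf5, a joint growth factor, had the largest difference, 1.43, followed by Abcb1a (0.80) and Scara3 (0.72), while Proz and Snord55 were not called. Proz did not exceed the background on any array, Abcb1a exceeded it in no control and Epm2a only on mutant replicate 3.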

How the data were processed

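Per the labels, 300 ng of total RNA from each of 6 samples was labelled with biotin. The authors deposited linear intensities for 35512 probe sets, with array medians of 82.4 to 90.5; the probe summary, background correction and normalisation behind them were not known from the sources used here. Groups came from sample titles. Probe sets were named through the platform annotation and RefSeq symbols, and 21789 had 1 gene. Intensities were used as log2(intensity + 1) as given. The brightest probe set of each gene was kept, and genes under the lower quartile of all probe sets (5.56) were left out. A linear model in limma 3.58.1 (R 4.3.3; lmFit, then eBayes; two-sided) gave p-values, adjusted after Benjamini and Hochberg over 17020 genes. The fit was tested on data simulated with independent normal noise. It called 22% of log2 changes of 0.5, 71.8% of those of 1, 93.2% of those of 2 and 0.0357% of unchanged genes. A gene that was not called may thus still differ by such small amounts. The simulation held no difference in composition between the groups.

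The 10 genes and all lists were chosen with earlier results of these data known. Named genes are the 10, Stk11, Pth1r, Sik1 to Sik3, up to 4 called genes per list by size, and the 3 best correlated with each receptor. Akap11, Pde3a, Pde3b, Pde4a, Pde4c, Crtc1 to Crtc3, Egr1, Fosb, Junb, Ier2, Ier5, Cry1, Cry2, Hlf, Rgs2, Atf3, Ppargc1a, Arntl, Nr1d1, Ciart, Bhlhe40, Galnt11, Fkbp5, Tsc22d3, Sgk1 and the single markers Kdr, Klf1, Rhag, Mpo, Elane, Cd79a and Vpreb3 were picked with their values in view.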

Additional observations from a re-analysis of the deposited data

How the results depend on the processing

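The count of 8 called genes among the 10 was 7 without the filter, where Per1 had an adjusted p of 0.0526, 9 with an intensity trend or array weights, where Dusp1 was called, and 6 to 8 when 1 array was left out. With the marrow marker mean as a covariate it was 0, the count over all genes fell from 2496 to 4 and that of the pathway lists from 30 to 0. In that fit Creb1 differed by 0.28 and Dusp1 by -0.023, each with its sign turned and uncalled in both fits. Array weights raised the count over all genes to 8006 and that of the pathway lists to 62; the cause was not tested. Leaving out 1 array gave 936 to 3282 calls over all genes and 17 to 34 in the pathway lists. With the replicate number as a block 8 of the 10 genes, 25 pathway genes and 2031 genes in all were called. Deviations of same-numbered arrays correlated at 0.08, 0.21 and -0.08, of which 0.21, for replicate 2, was the highest of all combinations. Control replicate 1 correlated best with mutant replicate 3 (0.11). With 3 arrays per group the deviations cancel within each group, so these values cannot exclude pairs. The numbers were not taken as pairs in the main fit. Over the 15 alternatives other than the marrow settings the difference lay between 1.099 and 1.207 for Nr4a1, 0.83 and 1.12 for Nr4a2, 1.08 and 1.45 for Nr4a3, 1.12 and 1.23 for Pde4b, 1.22 and 1.35 for Pde4d and 0.66 and 0.80 for Crem, and all 6 were called in each. With control replicate 1 as the only control no count is given, since no spread between controls remains. Dim signals limit the size for Crem, the further Pde4d probe sets, Pde1a, Pde4a, Pde4c, Ppargc1a, Kdr, Proz, Abcb1a, Epm2a, Rapgef3 and Hlf. Rapgef3 exceeded the background in 1 of 3 controls and Hlf in none, while both exceeded it in all mutants.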

Other observations

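Relatives of Dusp1 were lower where they were called. Of 9 other MAP kinase phosphatase genes none was called higher and 2 fell, with a median of 0.02. Over all genes tested 7.84% were called higher and 6.82% lower. Dusp8 fell by 0.73 (SE 0.12, limma adjusted p = 0.00894) and Dusp16 by 0.62 (SE 0.10, adjusted p = 0.00704), both phosphatases that act on JNK and p38. Dusp8 was at 8.91, 8.91 and 8.72 in the controls and at 7.88, 8.24 and 8.22 in the mutants, with no overlap. Both kept their call in each fit that left out 1 array.

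Per1 and Dusp1 are also induced by glucocorticoids, and 8 other such genes were listed. Of these Zbtb16 (0.83, limma adjusted p = 0.0249) and Ddit4 (0.65, adjusted p = 0.00734) rose and none fell, beside 7.84% and 6.82% of all genes tested. Of the 6 fits that left out 1 array, Zbtb16 was called only in that without control replicate 1, Ddit4 in all, and the difference of Zbtb16 turned to -0.67, uncalled, with the marrow markers as a covariate. Fkbp5 varied widely within both groups, at 8.31, 7.62 and 7.28 in the controls and at 8.67, 7.68 and 8.41 in the mutants, and was not called (adjusted p = 0.335). Tsc22d3 (0.28) and Sgk1 (0.26) were not called.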
